A study of Mus musculus with 2 samples.

Results

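Among cultured mouse embryonic stem cells, 893 of 35466 barcodes carried a raised share of chromosome 11 transcripts and were called chromosome 11 gain. The 35466 were the barcodes, out of 197530 in both files, that passed filters on depth, Pou5f1 and markers of other cells. The members were chosen by measured values: the gain was called where the ratio of unique molecular identifiers (UMIs) on chromosome 11 to UMIs on 15 reference autosomes (all but 1, 8, 11 and 14) was at least 1.3 times the time 1 median. The comparison group, called no gain, held 34153 barcodes with a ratio below 1.15. The remaining 420 barcodes, with ratios from 1.15 to below 1.3, entered neither group. The gain group had 313 barcodes at time 1 and 580 at time 2, and the no-gain group 13612 and 20541.

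The cells were C3H/HeSn-Paf/J embryonic stem cells from 9 independently derived lines, 3 each from XX, XO and XY embryos, mixed in 1 culture and captured by droplet sequencing. Time 1 was an early passage and time 2 the same pool 10 passages later. All cells shared the medium with serum and leukaemia inhibitory factor (LIF), on gelatin with irradiated embryonic fibroblast feeders, and no group carried a transgene or received a drug. Each time point was 1 library and barcodes were not assigned to lines, so gain and no-gain barcodes are compared within a library, barcodes are not replicates, no test was made, and intervals cover counting error only.

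Mouse embryonic stem cells are derived from the inner cell mass and can be kept dividing in culture, where cells with an extra chromosome arise and can spread through a population. An extra chromosome raises the template for every gene it carries, and transcript levels of most such genes follow the copy number unless feedback on single genes holds them back. Mouse chromosome 11 carries the tumour suppressor gene Trp53, the LIF signalling gene Stat3, and many genes of translation, mitosis and protein degradation.

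The libraries held 1735810403 and 1843588321 UMIs. Gain barcodes were deeper than no-gain barcodes, with medians of 54322 against 43011 UMIs at time 1 and 53776 against 50511 at time 2, and mitochondrial shares were 2.29 against 2.42% and 2.18 against 2.201%. Scrublet, which scores barcodes for likeness to simulated doublets, marked 4.47% of gain and 2.12% of no-gain barcodes at time 1, and 3.28% and 1.48% at time 2. It marked 14.9% and 12.0% of the barcodes between the bounds. Pou5f1, the transcription factor that defines pluripotent cells and a gene used by the filter, had levels of 835 in gain and 989 in no-gain barcodes at time 1 and 1074 and 1148 at time 2. Levels here and below are summed UMIs of a gene per 1000000 UMIs on the 15 reference autosomes. The libraries shared 75 of the filtered barcode sequences, and 0 of these were in the gain group of both libraries.

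The ratio that chose the barcodes had a median of 1.47 in the gain group of time 1 and 1.504 in that of time 2, near the value of 1.5 that 3 copies over 2 would give, while the no-gain medians were 0.998 and 1.03. These values were fixed by the rule and are a description. Just inside the bound, from 1.3 to 1.35, lay 29 barcodes at time 1 and 36 at time 2, and just outside it, from 1.25 to 1.3, lay 26 and 81. Gain barcodes made up 2.22% of filtered barcodes at time 1 (95% exact Clopper-Pearson interval 1.99 to 2.48%) and 2.71% at time 2 (2.50 to 2.94%). The same bound on each of the 15 reference autosomes was reached by a median of 0.0781% of barcodes at time 1 and 0.178% at time 2, and at most 3.27% and 2.48%. Chromosome 19 gave both, and at time 1 more barcodes reached the bound there than on chromosome 11. Whether those barcodes carry a gain of chromosome 19 was not tested.

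**Figure D1:**
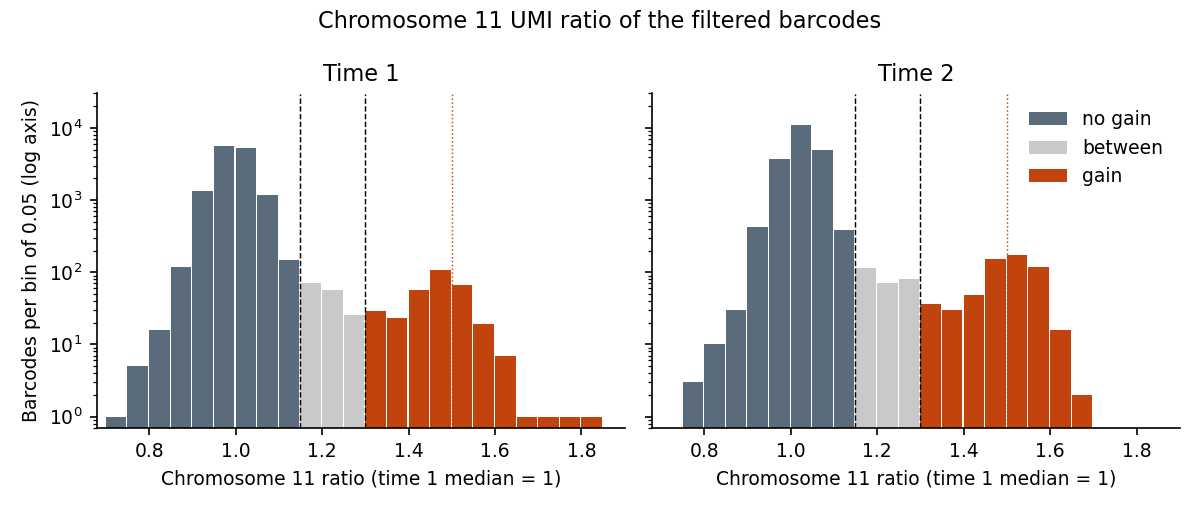
Number of filtered barcodes (log axis) by chromosome 11 ratio in bins of 0.05, at time 1 (left) and time 2 (right), with the no-gain group in grey-blue, barcodes between the bounds in light grey and the gain group in orange. Dashed lines mark 1.15 and 1.3 and the dotted line 1.5. The gain groups, with medians of 1.47 and 1.504, form a separate upper mode.

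Genes not used for a call showed a similar ratio. The genes of chromosome 11, without ribosomal protein genes and very abundant genes, were split by position into 928 odd-ranked and 928 even-ranked genes. The 321 barcodes of time 1 called on odd-ranked genes had a median ratio of 1.49 on even-ranked genes (95% interval of the median over barcodes 1.47 to 1.51), and 91.3% of them reached 1.3 there. At time 2 the 686 barcodes called on odd-ranked genes had a median of 1.55 (1.53 to 1.56) on even-ranked genes and 90.5% reached 1.3. Of barcodes with no gain on odd-ranked genes, 10 of 13286 at time 1 (0.0753%) and 10 of 17963 at time 2 (0.0557%) reached 1.3 on even-ranked genes. Those barcodes with no gain had even-ranked medians of 0.995 at time 1 and 1.05 at time 2, on a ratio scaled to time 1. With the sets exchanged, the medians of called barcodes were 1.46 and 1.53 and those of no-gain barcodes 0.994 and 1.07.

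The ratio was also read in parts of the chromosome. Chromosome 11 (GRCm38, positions 3131850 to 121843423 for the genes used) was cut into proximal, middle and distal parts of 664, 580 and 612 genes with equal time 1 UMIs. Of barcodes called from the ratio of the proximal part, whatever the others read, 332 at time 1 had medians of 1.47 in both the middle and the distal part, and 656 at time 2 had 1.61 and 1.54. Barcodes called in the same way from the distal part numbered 359 and 809, with proximal medians of 1.44 at both times. The values that follow are for the gain barcodes, chosen by the sum over all of these genes, and are a description. In gain barcodes of time 1 the median ratios of the proximal, middle and distal parts were 1.47, 1.47 and 1.48. At time 2 they were 1.49, 1.63 and 1.56, while the no-gain barcodes of time 2 stood at 1.02, 1.11 and 1.07, so part of the higher middle value was shared by barcodes without the gain. All 3 parts reached 1.3 in 252 of 313 gain barcodes at time 1 (80.5%) and in 539 of 580 at time 2 (92.9%). At least 1 part lay below 1.15 in 5 gain barcodes at time 1 and in 1 at time 2. Barcodes with only the distal part at or above 1.3 and both other parts below 1.15 numbered 30 of 14079 at time 1 and 21 of 21387 at time 2, against 6 and 5 for the proximal part alone.

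In 16 bins of neighbouring genes, which hold the genes whose sum chose the barcodes, the ratio of summed levels lay between 1.296 and 1.60. The lowest was the bin from Usp22 to Sox15, at 1.31 at time 1 and 1.296 at time 2, and the highest the bin from Ccm2 to Fancl at time 1, with 1.60, which stood at 1.395 at time 2.

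**Figure D2:**
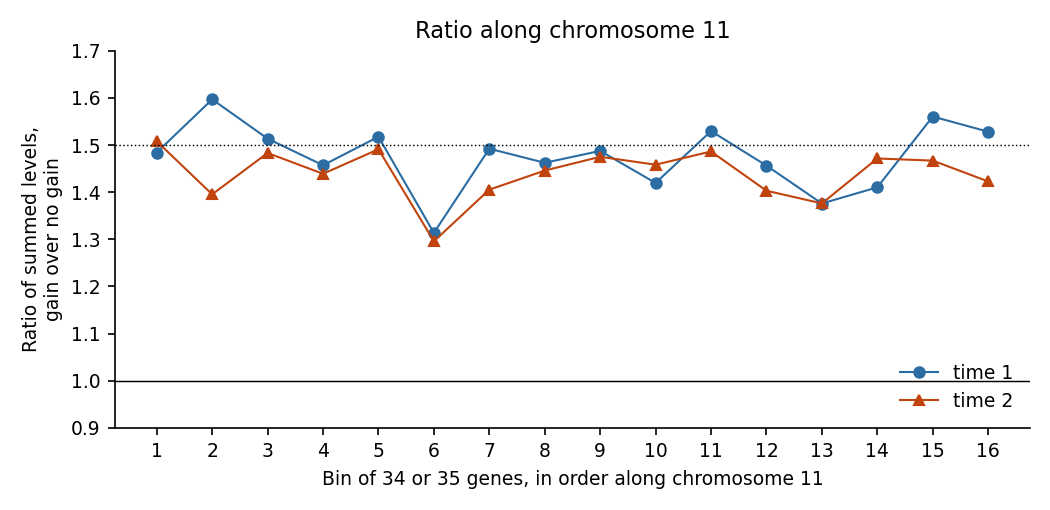
Ratio of summed levels, gain over no gain, in 16 bins of 34 or 35 tested genes in order along chromosome 11, at time 1 (circles) and time 2 (triangles). The solid line marks 1 and the dotted line 1.5. All bins at both times lie between 1.296 and 1.60.

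Most chromosome 11 genes were higher in gain barcodes. Of its 2087 genes, 548 had a mean level of at least 20 over the 4 groups and were tested. Among these 548, 471 (85.9%) were at least 1.2-fold higher in gain barcodes at both times and 0 (0%) at least 1.2-fold lower. At time 1 89.4% were higher and 0.912% lower by that fold, and at time 2 92.7% and 0.547%. The rule summed these genes, so these counts are a description. The median log2 ratio of gain over no gain was 0.56 at time 1 and 0.55 at time 2, and 5 to 95% of genes lay from 0.11 to 0.89 and from 0.22 to 0.80. At time 2 the no-gain barcodes were weighted to match the gain barcodes in the gains of chromosomes 1, 8 and 14. Genes on other chromosomes had medians of 0.02 and 0.04. Of the 548, 327 had ratios between 1.3 and 1.7 at both times, 161 exceeded 1.5-fold at both, and 524 were higher at both.

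The SD of the log2 ratios of chromosome 11 genes was 0.26 at time 1 and 0.20 at time 2, against median counting errors of 0.046 and 0.033. Tested genes on other chromosomes also spread, with 5th to 95th percentiles of -0.37 to 0.35 at time 1 and -0.25 to 0.31 at time 2. Across the 548 genes the log2 ratios of the 2 times had a Pearson correlation of 0.57 and a Spearman correlation of 0.60, over libraries of the same pool and genes that are not independent. Ratios changed little with level: in 4 equal groups by mean level, from low to high, the time 1 medians were 0.52, 0.51, 0.58 and 0.58.

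**Figure D3:**
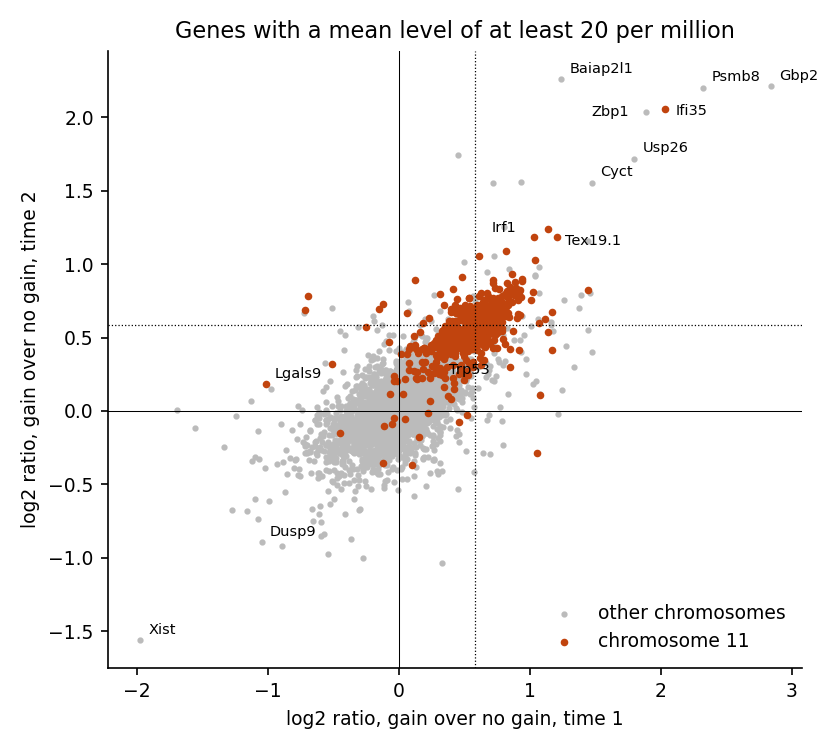
Each point is a gene with a mean level of at least 20, with its log2 ratio of gain over no gain at time 1 (horizontal axis) and time 2 (vertical axis), chromosome 11 in orange and other chromosomes in grey. Dotted lines mark a 1.5-fold ratio. Chromosome 11 genes centre on 0.56 and 0.55, and Gbp2, Psmb8 and Zbp1, on other chromosomes, lie far to the upper right.

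Of translation genes on chromosome 11, 15 of 15 tested were at least 1.2-fold higher at both times, near the 85.9% of the whole chromosome, with median log2 ratios of 0.54 and 0.50. They included the most abundant transcripts of the chromosome. Rps27a, a ubiquitin fusion with a small-subunit ribosomal protein, had levels of 13096 in gain and 9008 in no-gain barcodes at time 1, and 12423 and 8578 at time 2, log2 ratios of 0.54 and 0.53. Npm1, a nucleolar chaperone of ribosome assembly, was 0.51 higher at both times, Rpl23 0.46 and Rpl19 0.53 and 0.50. Ribosomal protein genes, of which 7 were tested, had medians of 0.53 and 0.50, so this class stood near the chromosome as a whole. Ppia, the peptidyl-prolyl isomerase cyclophilin A and the other gene among the 5 most abundant, had levels of 10358 against 6544 at time 1 and 9247 against 6175 at time 2.

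Protein degradation and folding genes on chromosome 11 were higher in 11 of 11 cases, also near 85.9%, with medians of 0.62 and 0.56. Psmb6, a catalytic subunit of the 20S proteasome core, had levels of 1094 against 623 at time 1 and 1104 against 698 at time 2, log2 ratios of 0.81 and 0.66. Psmb3, another core subunit, was 0.72 and 0.53 higher, and Psmd12, of the regulatory lid, 0.62 and 0.61. Of proteasome subunit genes on other chromosomes, 0 of 25 passed 1.2-fold higher at both times, beside 3.71% of tested genes elsewhere, and 4 passed at time 1, beside 10.3%, with medians of 0.19 and 0.03. By any amount 24 of the 25 were higher at time 1 and 20 at time 2, beside 3035 and 3374 of all 5529 tested genes elsewhere. Heat shock chaperones elsewhere passed at both times in 0 of 11 cases, beside 3.71%, with medians of 0.10 and 0.03.

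Mitosis and replication genes on chromosome 11 were at least 1.2-fold higher at both times in 12 of 13 cases, near the 85.9% of the chromosome, with medians of 0.51 and 0.54. Top2a, the topoisomerase that untangles replicated DNA, had levels of 1038 against 688 at time 1 and 1282 against 826 at time 2. Birc5 and Aurkb, both of the chromosomal passenger complex that corrects spindle attachment, were 0.48 and 0.52 and 0.54 and 0.54 higher. Tk1, thymidine kinase, was the gene outside the count, with log2 ratios of 0.42 and 0.15. Of cell cycle genes on other chromosomes, 0 of 17 S phase genes and 0 of 20 G2 and M phase genes passed 1.2-fold at both times in either direction, beside 3.71% higher and 2.41% lower of tested genes elsewhere. Their medians were -0.01 and -0.04 for S phase and -0.06 and 0.02 for G2 and M phase, and 2 of the 20 were at least 1.2-fold lower at time 1, beside 9.03%. At single times 7 and 4 of the 17 and 5 and 11 of the 20 were higher in gain barcodes by any amount. Of all 5529 tested genes elsewhere 3035 and 3374 were.

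Genes of the p53 pathway and of DNA repair on chromosome 11 were higher in 7 of 7 cases, beside 85.9% of the chromosome, with medians of 0.59 and 0.57. Trp53, which encodes p53 (chr11:69580359-69591873), had levels of 499 against 400.5 at time 1 and 629 against 482 at time 2, and its log2 ratios of 0.32 and 0.38 lay below the chromosome medians. Brca1, of homologous recombination, was 0.48 and 0.64 higher, Rad51d 0.89 and 0.88, and Ppm1d, the phosphatase that turns off p53, 0.63 and 0.39. Known p53 target genes on other chromosomes were at least 1.2-fold higher at both times in 3 of 12 cases and lower in 0, beside 3.71% and 2.41% of all tested genes elsewhere, with medians of 0.04 and 0.02. The 3 were Btg2 at 0.72 and 0.45, Cdkn1a, the cell cycle inhibitor p21, at 0.70 and 0.30, and Trp53inp1 at 0.36 and 0.31. Within the X-low Y-negative and X-low Y-positive classes, defined below, the time 2 ratio of Cdkn1a was 0.257 and 0.179, each under 1.2-fold. At time 1 its ratio in these classes was 0.61 and 0.68. Mdm2, which degrades p53, stood at 0.30 and 0.24, and Bax, which promotes apoptosis, at -0.07 and -0.04.

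Lipid synthesis genes on chromosome 11 passed in 4 of 4 cases, beside 85.9%, with medians of 0.77 and 0.65. Acly, which makes cytosolic acetyl-CoA, had levels of 182 against 102 at time 1 and 189 against 103 at time 2, and Fasn, fatty acid synthase, 153 against 89.97 and 159.5 against 109. Their log2 ratios were 0.82 and 0.87 for Acly and 0.76 and 0.55 for Fasn. Cholesterol and fatty acid synthesis genes elsewhere passed at both times in 4 of 19 cases (Scd1, Scd2, Dhcr7 and Fdft1), beside 3.71%, with medians of 0.30 and 0.13. At time 1 14 of the 19 passed, beside 10.3% of all genes on other chromosomes, and at time 2 4, beside 7.7%. Within X-low Y-negative barcodes, defined below, 8 of the 19 passed at time 1 and 4 at time 2, beside 637 and 486 of all 5529 tested genes elsewhere. In X-low Y-positive barcodes 7 and 9 passed, beside 715 and 915 of 5529. In X-high Y-negative barcodes 3 passed at time 1, beside 1140 of 5529. In time 2 barcodes with gains of 1, 8 and 14, 2 passed, beside 693 of 5529, and the median was -0.02.

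Of stress genes on chromosome 11, 2 of 2 tested passed at both times, Xbp1 and P4hb, beside 85.9%. Xbp1, the transcription factor of the unfolded protein response, had levels of 86.8 against 48.9 at time 1 and 60.9 against 28.1 at time 2, log2 ratios of 0.82 and 1.09. P4hb, an endoplasmic reticulum disulfide isomerase, was 0.94 and 0.90 higher. Of 11 genes of the unfolded protein and integrated stress responses elsewhere, 1 was higher at both times, Sdf2l1 at 0.41 and 0.33, beside 3.71% of tested genes elsewhere. Chromatin genes of chromosome 11 passed in 7 of 10 cases, beside 85.9%, with medians of 0.50 and 0.49, and Ncor1, Kdm6b and Smarcd2 did not. Suz12, a core subunit of Polycomb repressive complex 2, had levels of 391 against 249 and 345 against 214, log2 ratios of 0.65 and 0.69. Its partners on other chromosomes stood at -0.17 and -0.15 for Ezh2 and -0.25 and -0.29 for Eed, and 0 of 10 Polycomb genes elsewhere passed at both times in either direction, beside 3.71% higher and 2.41% lower. At time 1 2 of the 10 were at least 1.2-fold lower, beside 9.03%, and at time 2 1, beside 4.65%, with medians of -0.16 and -0.08.

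Of LIF signalling genes on chromosome 11, 2 of 3 passed at both times, Stat3 and Grb2, beside 85.9% of the chromosome. Stat3, the transcription factor activated by LIF, had levels of 39.8 against 21.7 at time 1 and 58.7 against 47.4 at time 2, so that its log2 ratio was 0.85 and then 0.30. Grb2, an adaptor of receptor tyrosine kinases, was 0.46 and 0.47 higher, and Socs3, the feedback inhibitor of STAT3, 0.37 and 0.10. Among 5 known STAT3 target genes on other chromosomes, 0 were higher and 2 lower at both times, namely Tfcp2l1 and Klf4, beside 3.71% and 2.41% of tested genes elsewhere. Of 4 imprinted genes on chromosome 11, Ddc and Commd1 passed at both times, beside the same 85.9%. Grb10, an imprinted inhibitor of growth factor receptors, was 36.6 against 17.1 at time 1 and 23.3 against 28.6 at time 2, and Zrsr1, expressed from the paternal allele, was 0.22 and -0.02.

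The 6 highest chromosome 11 genes included Ifi35 and Irf1, both of interferon response. Of the 6, Ifi35, Igfbp4 and Tax1bp3 had mean no-gain levels under 20 and reached the level minimum through their gain-group values, as did 49 of the 548 tested genes. Ifi35, an interferon-induced protein (chr11:101448407-101458698), had a level of 72.6 (95% interval 67.9 to 77.5) against 17.0 (16.6 to 17.4) at time 1 and 31.2 (28.9 to 33.6) against 6.73 (6.55 to 6.92) at time 2. Its log2 ratios of 2.03 and 2.06 were the highest mean of the chromosome. Irf1, a transcription factor of interferon signalling (chr11:53770014-53778374), was 76.1 against 36.8 at time 1 and 44.9 against 19.13 at time 2. Over all barcodes both genes were higher in the gain group of each library, by more than 3 copies over 2 would give. Both were named for being among the 6 highest, so this excess is a description. Within X-high Y-negative barcodes of time 1, defined below, the Irf1 log2 ratio was 0.41, under the 0.585 of 3 copies over 2. In X-low Y-negative and X-low Y-positive barcodes of time 1 the Irf1 ratio was 1.298 and 1.26. The Ifi35 ratios in these classes, in the same order, were 1.09, 2.41 and 2.09. Tex19.1, a germline gene expressed in embryonic stem cells, had levels of 214 against 92.2 and 220 against 95.9. Igfbp4, a binding protein of insulin-like growth factors, Tax1bp3, a PDZ protein, and Limd2, a LIM domain protein, completed the 6 highest, at 1.14 and 1.24, 1.04 and 1.03, and 1.45 and 0.83. At both times 5 genes exceeded 2-fold: Ifi35, Irf1, Tex19.1, Igfbp4 and Tax1bp3.

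A few chromosome 11 genes did not follow the gain. At both times 9 of 548 were below 1.1-fold: Tug1, Cobl, Cldn7, Myo18a, AA465934, Srsf1, Etv4, Pitpnc1 and Llgl2. Srsf1, a splicing factor with a high level, was 202 against 212 at time 1 and 217 against 200.4 at time 2, and was singled out after its values were seen. Etv4, a transcription factor downstream of fibroblast growth factor signalling, was 28.8 against 39.6 and 86.9 against 96.5, lower in the gain group of both libraries. Cldn7, a tight junction protein, was 142 against 132 and then 28.9 against 37.6. Lgals9, a galectin, was 15.8 against 32.9 at time 1 and 20.2 against 17.7 at time 2, and Krt17, a keratin, 35.6 against 51.2 and then 58.2 against 46.4, so for these the 2 libraries differed in direction. Over barcodes without gains of chromosomes 1, 8 and 14, the time 2 ratio of Cldn7 was 0.36 and that of Krt17 -1.52, the opposite directions.

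On the other chromosomes, 205 of 5529 tested genes (3.71%) were at least 1.2-fold higher in gain barcodes at both times and 133 (2.41%) at least 1.2-fold lower. At single times 10.3% and 7.7% were higher and 9.03% and 4.65% lower, at time 1 and time 2. The split between higher and lower depended on the scaling. Per 1000000 of all UMIs it was 92 higher and 180 lower, and with TMM factors 61 higher and 299 lower over 4553 genes that reached the level of 20 under either scaling, fewer than the 5529 above. Both scalings count the chromosome 11 transcripts in the total, and TMM adds factors of its own. The scaling to all UMIs shifted the median of genes elsewhere by -0.049 at time 1 and -0.062 at time 2 and TMM by -0.11 and -0.12, and the gap between chromosome 11 and the rest stayed at 0.53 and 0.51. No other autosome had a ratio of summed levels outside 0.951 to 1.05 at either time.

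Of the 8 largest positive differences outside chromosome 11, 5 were in genes of interferon response and antigen processing. The level minimum, a mean over all 4 groups, favours genes high in the gain group: of the 8, Gbp2, Parp9, Psmb8, Usp26 and Zbp1 had mean no-gain levels under 20, as did 37 of the 205 genes called higher. Gbp2, an interferon-induced guanylate-binding protein (chr3:142620602-142638008), had a level of 81.7 (95% interval 76.7 to 86.9) against 10.6 (10.3 to 10.9) at time 1 and 14.7 (13.2 to 16.4) against 2.39 (2.28 to 2.50) at time 2. Psmb8, a catalytic subunit of the immunoproteasome that cuts peptides for antigen presentation (chr17:34197721-34201454), was 129 against 24.99 and 25.7 against 4.80. Zbp1, a sensor of Z-form nucleic acids, was 93.0 against 24.4 and 46.5 against 10.6. Their log2 ratios were 2.84 and 2.21, 2.32 and 2.202, and 1.89 and 2.04. All 3 were lower at time 2 than at time 1 in both groups, and in each library the gain group was higher.

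Parp9, an interferon-induced ADP-ribosyltransferase partner, was 45.4 against 16.1 and 31.9 against 13.7, and Psme2, of the proteasome activator PA28, 412 against 196 and 283 against 143. These 5 genes were among the 8 largest positive differences elsewhere. The other 3 were Usp26, a germline deubiquitinase on the X chromosome, at 1.80 and 1.72, Cyct, testis cytochrome c, at 1.48 and 1.55, and Baiap2l1, an actin regulator, at 1.24 and 2.26. Within the X and Y classes the Usp26 difference was larger: in X-low Y-negative barcodes its level was 77.4 against 5.14 at time 1 and 33.0 against 2.17 at time 2.

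A list of 45 genes of interferon response and antigen processing, written after these named genes had been seen, gives the range of the pattern and is no independent support. Of its 35 genes outside chromosome 11, 16 reached a level of 20. Among these 16, 13 were at least 1.2-fold higher at both times and 0 lower, beside 3.71% and 2.41% of tested genes elsewhere, with median log2 ratios of 1.07 and 0.73. The mean no-gain level was under 20 in 9 of the 16. Of the other 7, 6 were called higher, beside 168 of 5410 tested genes elsewhere with such a no-gain level. Of the 19 with a mean level under 20, 14 were at least 1.2-fold higher at both times. The share of all genes elsewhere at such low levels was not computed, and with a minimum level of 5 it was 5.86% of those tested. By any amount 16 of the 16 tested were higher in gain barcodes at both times, against 43.4% of tested genes on other chromosomes. The 19 below the level were higher too, some by differences within their counting intervals, such as Ifit2 at 0.323 against 0.310 at time 1. The summed level of the 35 was 2495 against 1242 at time 1 and 1578 against 909.8 at time 2. Besides the genes above, Psmb10, an immunoproteasome subunit, was 249 against 94.7 and 248 against 143, H2-K1, a class I major histocompatibility heavy chain, 134 against 63.1 and 48.2 against 27.2, and B2m, its light chain, 43.9 against 19.105 and 19.2 against 12.5. The sensors Ddx58 and Eif2ak2 and the nuclease Samhd1 did not pass at both times.

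Listed genes below a mean level of 20 included Isg15, a ubiquitin-like protein that interferon induces, at 39.9 against 9.21 at time 1 and 11.5 against 2.96 at time 2. Gbp3 was 33.6 against 5.43 and 9.44 against 1.22. Ifit1, also induced by interferon, had levels of 0.566 and 0.235 at time 1 and 0.703 and 0.121 at time 2 in gain and no-gain barcodes. Of the 10 listed genes on chromosome 11 itself, of which 4 reached a level of 20, 9 were at least 1.2-fold higher at both times, beside 85.9% of all tested genes of the chromosome, and Lgals9 was not.

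The median of the interferon list was above 0 in each subset examined. At time 1 the median log2 ratio was 1.09 in X-low Y-negative, 0.70 in X-high Y-negative and 0.86 in X-low Y-positive barcodes. At time 2 it was 0.71 in X-low Y-negative and 1.09 in X-low Y-positive barcodes. In barcodes of time 2 without gains of 1, 8 and 14 it was 1.04, and with gains of all 3 it was 0.64. The lowest was 0.56, in the 26 gain barcodes with gains of 1 and 14, where 14 of 16 genes were higher and B2m was -0.17. Over the alternatives tried on the processing and the barcodes, with matching for other gains, the median ranged from 0.88 to 1.13 at time 1 and from 0.62 to 1.04 at time 2.

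Promoter sequences show which of these genes carry the core of the interferon-stimulated response element, searched as GAAA, any 2 bases and GAAA, on both strands, overlapping matches allowed. RefSeq windows (GRCm38.p6, 250 bases before to 50 after a start) existed for 18 of the 20 listed genes at a level of 20 or more, and 7 of the 18 held a match (38.9%), against 163 of 4911 tested genes with a window (3.32%). The 7 were Gbp2, Psme1, B2m, Bst2, Ddx58, Eif2ak2 and Lgals9, of which Ddx58, Eif2ak2 and Lgals9 were not higher by 1.2-fold at both times. No match lay in the windows of Psmb8, Psme2, Ifi35 and Irf1, which were higher by that fold at both times. The list was written from known interferon genes, so its share of matches follows from that choice and says nothing about the gain. The windows of Gbp2 (chr3:142620413-142620712, plus strand) and Bst2 (chr8:71537423-71537722, minus strand) are given because Gbp2 had the largest difference and Bst2, an interferon-induced membrane tether, held 2 overlapping matches. The time 1 log2 ratio of Bst2 was 0.40 over all barcodes. Within X-high Y-negative, X-low Y-negative and X-low Y-positive barcodes it was 0.01, 0.18 and 0.16, each under 1.2-fold. At time 2 the Bst2 ratio was 0.60 over all barcodes, and 0.40 and 0.62 in the X-low Y-negative and Y-positive classes. Capitals mark the matches, and in Gbp2 the match is on the opposite strand. A match is a description of these letters, and binding was not measured.
Gbp2: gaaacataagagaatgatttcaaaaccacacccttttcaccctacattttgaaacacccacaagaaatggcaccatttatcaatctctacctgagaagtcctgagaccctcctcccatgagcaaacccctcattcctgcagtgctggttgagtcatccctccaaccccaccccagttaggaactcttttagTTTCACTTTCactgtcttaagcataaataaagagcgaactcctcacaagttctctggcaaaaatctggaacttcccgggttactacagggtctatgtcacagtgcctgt
Bst2: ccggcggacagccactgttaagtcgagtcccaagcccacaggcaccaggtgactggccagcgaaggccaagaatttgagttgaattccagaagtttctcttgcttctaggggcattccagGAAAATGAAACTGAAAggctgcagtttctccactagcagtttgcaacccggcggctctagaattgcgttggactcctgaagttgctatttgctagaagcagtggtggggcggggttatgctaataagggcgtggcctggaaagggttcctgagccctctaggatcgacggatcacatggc

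Among 10 tested genes of naive pluripotency, the state held by LIF, 6 were at least 1.2-fold lower in gain barcodes at both times. By the same fold 0 were higher at both times. Of tested genes elsewhere 2.41% were lower and 3.71% higher, and the medians of the 10 were -0.36 and -0.37. At each single time 1 of the 10 was at least 1.2-fold higher, beside 10.3% and 7.7%. Tfcp2l1, a transcription factor of the naive state, had levels of 24.6 against 45.4 at time 1 and 81.0 against 109.6 at time 2. Klf4, a reprogramming factor, was 74.3 against 90.1 and 94.3 against 190.2, and Esrrb, an orphan nuclear receptor, 32.8 against 50.9 and 55.7 against 75.1. Tbx3, Tcl1 and Klf5 were the other 3. Klf2 stood at 0.37 and 0.21, in the opposite direction.

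Genes of the primed epiblast, a later state, were at least 1.2-fold higher at both times in 4 of 6 cases, beside 3.71%, with medians of 0.68 and 0.38. Pou3f1, a transcription factor of early neural and primed cells, was 129 against 60.9 and 40.1 against 25.7, and Dnmt3b, a DNA methyltransferase, 244 against 167 and 156 against 110.5. Within classes at time 1 the Dnmt3b log2 ratio was 0.38 in X-low Y-negative, -0.12 in X-low Y-positive and -0.04 in X-high Y-negative barcodes. At time 2 its ratio was 0.16 in X-low Y-negative and 1.56 in X-low Y-positive barcodes. Otx2 and Lef1 also passed, and Sox4 and Dnmt3a passed at time 1 alone. The rule removed barcodes with 5 or more UMIs of the primed genes Fgf5, Fgf8 and Car2 in both groups. Core pluripotency genes passed lower at both times in 1 of 10 cases, Fgf4, and higher in 0, beside 2.41% and 3.71%, with medians of -0.26 and -0.10. At time 1 5 of the 10 were at least 1.2-fold lower, beside 9.03%, and at time 2 1, beside 4.65%.

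Medians of the naive and primed lists are given by class of barcode. At time 1 the naive median was -0.55 in X-low Y-negative, -0.24 in X-low Y-positive and 0.09 in X-high Y-negative barcodes. In the last class 7 of 10 naive genes were higher by any amount, beside 3400 of all 5529 tested genes elsewhere. At time 2 the naive median was -0.10 in X-low Y-negative barcodes and -0.87 in X-low Y-positive ones, in 46 gain barcodes. In these classes 3 and 8 of the 10 were at least 1.2-fold lower, beside 202 and 854 of 5529. The primed median at time 1 was 0.73, 0.54 and 0.42 in the same order of classes. At time 2 the primed median was 0.15 in X-low Y-negative barcodes. In that class 2 of 6 genes were at least 1.2-fold higher, beside 486 of all 5529 tested genes elsewhere. In X-low Y-positive barcodes the primed median was 1.03, with 6 of 6 genes past that fold, beside 915 of 5529. In time 2 barcodes without other gains the naive median was -0.93 and the primed median 1.497, and in those with gains of 1, 8 and 14 they were -0.22 and -0.13. Without other gains the gain and no-gain barcodes also differed in X content. There 153 of 196 X-linked genes were at least 1.2-fold lower in gain barcodes, with a median of -0.54. With gains of 1, 8 and 14 the X-linked median was 0.001. The part of X content in these list medians was not tested. The difference between classes was not tested.

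**Figure D4:**
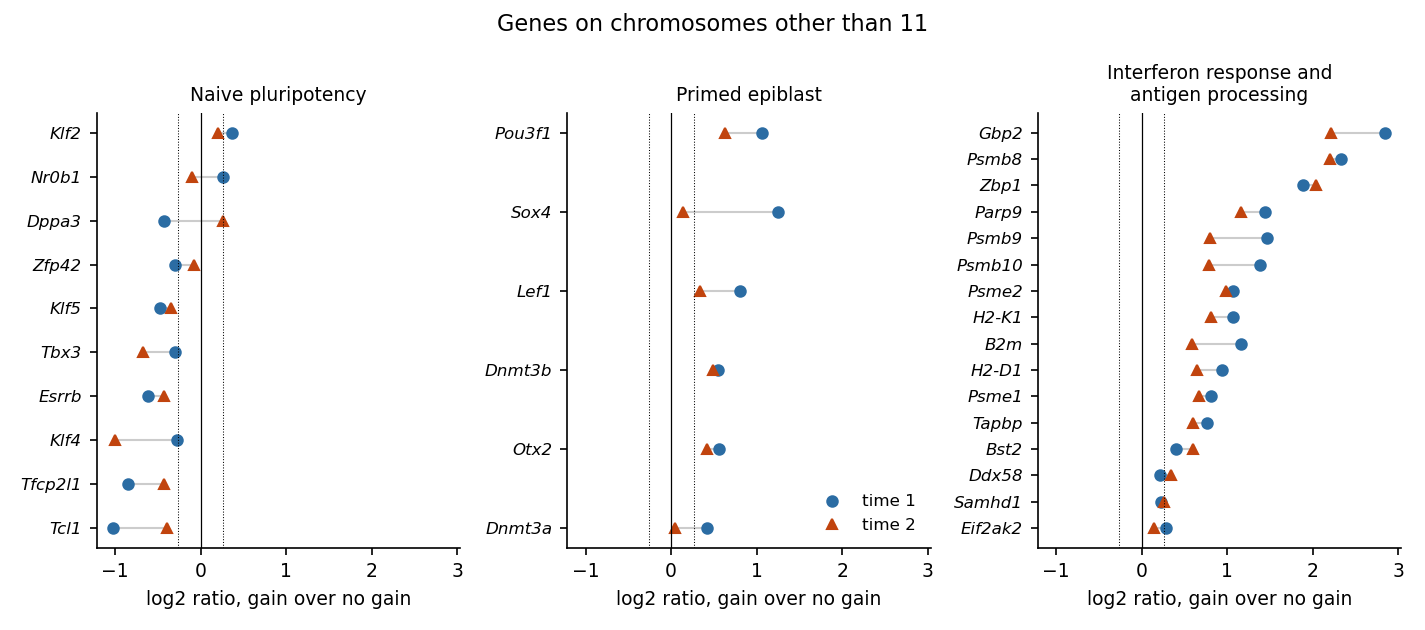
Log2 ratio of gain over no gain for tested genes on chromosomes other than 11, at time 1 (circles) and time 2 (triangles), for naive pluripotency, primed epiblast, and interferon response and antigen processing. Dotted lines mark 1.2-fold in either direction. Of the 10 naive genes 6 lie below the lower line at both times, and 13 of the 16 interferon genes lie above the upper line at both.

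Of 5 tested targets of the MAPK cascade, 2 were higher and 2 lower at both times, beside 3.71% and 2.41% of tested genes elsewhere. Egr1 at 1.38 and 0.70 and Etv5 at 0.55 and 0.35 were higher, and Spred1 and Spry2, inhibitors of the cascade, lower at -0.37 and -0.87 and -0.31 and -0.47. Within X-high Y-negative, X-low Y-negative and X-low Y-positive barcodes of time 1 the Egr1 ratio was 0.66, 1.04 and 0.56, each below the value over all barcodes. At time 2 it was 0.67 in X-low Y-negative and 1.12 in X-low Y-positive barcodes. Of metabolic genes, 0 of 15 glycolysis and 0 of 17 oxidative phosphorylation genes were past 1.2-fold at both times in either direction, beside 3.71% higher and 2.41% lower. Glycolysis medians were 0.01 and -0.11, with 3 of 15 higher at time 2, and oxidative phosphorylation medians 0.01 and -0.01, with 2 of 17 past 1.2-fold lower at time 1, beside 9.03%. Of 8 metallothionein and Nrf2 genes 1 was higher at both times, Nqo1, beside 3.71%, and at time 1 4 were, beside 10.3%. Of 2 Wnt targets Lef1 was higher and Ccnd1 lower at both times, beside 3.71% and 2.41%.

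Summed markers of other cell types stood as follows in gain and no-gain barcodes at time 1, then time 2. Fibroblast markers were 117 against 141 and 43.5 against 56.8, primitive and parietal endoderm 92.9 against 96.9 and 96.8 against 122, and trophoblast 141 against 192 and 98.5 against 93.4. Neural markers were 121 against 93.2 and 159 against 129, and mesendoderm markers 13.6 against 11.1 and 8.87 against 9.36. Markers of 2-cell-like cells were 5.17 against 14.7 and 10.4 against 3.23. The part of these cells or of feeder RNA in the differences above was not tested.

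The largest negative differences elsewhere included 4 X-linked genes, and the gain and no-gain groups differed in X content. Xist, the RNA that silences an X chromosome, was 16.2 against 66.9 at time 1 and 0.966 against 4.79 at time 2, and Dusp9, an X-linked phosphatase of MAPK, 81.6 against 169.7 and 34.5 against 65.0. Fhl1 and Tceal9, also X-linked, 2200002D01Rik, the ribosomal protein paralogue Rpl10l, Mymx, a muscle fusion factor, and the imprinted antisense RNA Kcnq1ot1 completed the 8. Over 196 X-linked genes the median log2 ratio was -0.27 at time 1 and -0.12 at time 2, and 28 were at least 1.2-fold lower at both times, beside 2.41% of all tested genes elsewhere. Within X-low Y-negative barcodes those medians were 0.03 and 0.01, with genes on either side of 0. The named X-linked genes were lower within that class too: Dusp9 by log2 ratios of -0.71 and -0.46, Fhl1 by -1.11 and -0.66, Tceal9 by -0.31 and -0.50, and Xist by -1.25 and -0.65.

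Barcodes were called X-high where X-linked UMIs over reference autosomal UMIs reached 1.2 times the median of the Y-positive barcodes in that library. X-high barcodes made up 13.7% of gain and 55.3% of no-gain barcodes at time 1, and 1.72% and 13.95% at time 2. Y-positive barcodes had 2 or more UMIs of Ddx3y, Eif2s3y, Kdm5d and Uty. Y-negative barcodes had fewer than 2, so they can still hold a Y transcript. Y-positive barcodes made up 26.2% of gain and 7.82% of no-gain barcodes at time 1 and 7.93% and 7.39% at time 2. Thinned to 18000 UMIs, these shares were 8.63% and 3.11% at time 1 and 3.10% and 2.39% at time 2. X-high barcodes, most of which should lack a Y chromosome, reached 2 Y UMIs in 1.94% and 2.40% of cases, at median depths of 43205 and 58952 UMIs, which is the background of this call.

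The gain was most frequent in X-low barcodes. At time 1 it was called in 81 of 1031 X-low Y-positive barcodes, or 7.86% (95% interval 6.29 to 9.67%), in 189 of 5413 X-low Y-negative barcodes, or 3.49% (3.02 to 4.02%), and in 42 of 7487 X-high Y-negative barcodes, or 0.561% (0.405 to 0.758%). At time 2 the shares were 2.94% (2.16 to 3.91%), 3.10% (2.84 to 3.37%) and 0.352% (0.169 to 0.646%). The intervals cover counting of barcodes only, and the difference between classes was not tested. Lines could not be told apart, so a class can hold cells of several lines and the gain barcodes may descend from few cells. In barcodes of time 1 called on odd-ranked genes, the median ratio on even-ranked genes was 1.496 in X-low Y-negative and 1.47 in X-low Y-positive barcodes. In X-high Y-negative barcodes it was 1.48. At time 2 it was 1.56 and 1.52 in the X-low classes but 1.2999 in the 37 X-high Y-negative barcodes, at the bound itself.

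**Figure D5:**
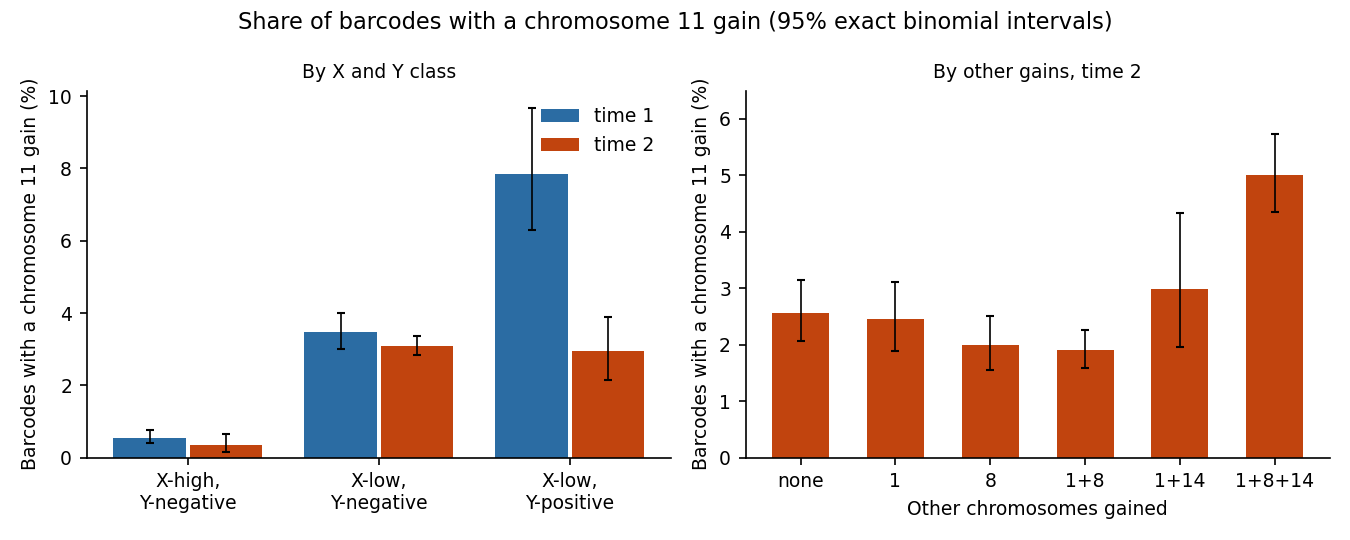
Percent of barcodes with a chromosome 11 gain by X and Y class at both times (left) and by combination of other gains at time 2, for combinations with at least 500 barcodes (right), with 95% exact binomial intervals. Of the 3 classes shown, X-high Y-negative barcodes stand lowest at 0.561 and 0.352%, and barcodes with gains of 1, 8 and 14 highest on the right at 5.00%.

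At time 2 chromosome 11 gain coincided with gain of chromosome 14. Of gain barcodes 226 of 580 (39.0%) also had a chromosome 14 gain, against 22.7% of no-gain barcodes. Read the other way, chromosome 11 gain was called in 4.60% (95% interval 4.03 to 5.22%) of barcodes with a chromosome 14 gain and in 2.15% (1.93 to 2.38%) of those without. Of the 226, 197 had gains of 1 and 8 too. Among barcodes with gains of 1, 8 and 14 the share with chromosome 11 gain was 5.00% (4.34 to 5.73%, 197 of 3939), with 1 and 14 it was 2.98% (1.957 to 4.34%), with 1 and 8 it was 1.904% (1.59 to 2.26%), and with none it was 2.57% (2.07 to 3.15%). Gain barcodes had chromosome 1 gains in 72.1% and chromosome 8 gains in 69.0% of cases, beside 66.8% and 67.7% of no-gain barcodes.

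Other gains were also read by X and Y class. In X-low Y-negative barcodes at time 2, chromosome 14 gain was called in 42.9% of 524 gain and 26.8% of no-gain barcodes. In X-low Y-positive barcodes it was called in 0 of 46 gain barcodes (exact upper limit 7.71%) and 16.9% of no-gain barcodes, and chromosome 1 gain in 21.7% and 66.2%. At time 1, when 1.399% of filtered barcodes had a chromosome 1 gain and 0.405% a chromosome 14 gain, chromosome 8 gain was called in 2.88% of gain and 7.08% of no-gain barcodes. Within X-low Y-negative barcodes the latter shares were 2.12% (4 of 189) and 17.5%. In X-high Y-negative barcodes they lay the other way, at 11.9% (5 of 42) and 0.528%, and chromosome 1 gain was called there in 9.52% and 0.176%. These differences were not tested.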

How the data were processed

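Each time point gave 1 droplet library (10x Chromium, 3.1 chemistry, per the labels' protocols). The values are raw UMI counts for each gene in each barcode, as the authors deposited them, with no normalisation per the file headers. The submitters' processing notes name bcl2fastq 2.20.0.422, Cell Ranger 6.1.2 and the builds mm10 and GRCm38. Of 32285 genes, 32158 matched GENCODE M21 (GRCm38) by identifier, which gave chromosomes and positions. Line tags were not used here.

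Filters were at least 18000 UMIs, 1000 genes and 10 Pou5f1 UMIs, at most 10% mitochondrial UMIs, and under 5 UMIs each of Col1a1 plus Bgn and of Fgf5 plus Fgf8 plus Car2. In order, the depth and mitochondrial limits left 25962 and 28317 barcodes, Pou5f1 24726 and 27459, the fibroblast genes 23807 and 27000, and the primed genes 14079 and 21387. Col1a1 itself lies on chromosome 11. Doublets were not removed in the main analysis. Scrublet in scanpy 1.11.5 marked 4.27% and 2.57% of barcodes, with log-transformed counts, a choice made after untransformed counts marked 0 at its automatic threshold.

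UMIs were summed per gene and group, divided by those on the 15 reference autosomes, and compared as log2 of level plus 1. Genes were named by rule: listed genes, on chromosome 11 the 6 highest and 6 lowest by mean log2 ratio and the 5 most abundant, and elsewhere the 8 largest rises and 8 largest falls by the smaller ratio of the 2 libraries. The barcodes, lists and rules were chosen with earlier results of these data known, and the interferon and germline lists and the promoter search after the named genes were seen. Levels have exact Poisson or gamma intervals and shares exact Clopper-Pearson ones, which cover counting error only, since UMIs of 1 culture are not independent samples. With 1 library per time point no test was made. Alternatives changed 1 choice at a time: bounds, depth, genes in the ratio, thinning, doublets, endoderm markers, reference, weighting, scaling (edgeR 4.0.16 TMM), level minimum, pseudocount, and barcode class. The scripts were tested on simulated data. Tools were Python 3.11.15, numpy 2.4.6, scipy 1.17.1, pandas 2.3.3 and R 4.3.3.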

Additional observations from a re-analysis of the deposited data

Results flagged for a closer look

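Among the listed and named genes, some differed in direction between the 2 libraries, each past 1.2-fold. Other genes were not searched, and the difference between time points was not tested. Grb10, an imprinted growth inhibitor on chromosome 11, had log2 ratios of gain over no gain of 1.05 at time 1 and -0.28 at time 2. Krt17, a keratin gene on chromosome 11, had -0.51 at time 1 and 0.32 at time 2. Dppa3, a naive pluripotency and germline gene on chromosome 6, had -0.42 at time 1 and 0.26 at time 2. Junb, an immediate early transcription factor on chromosome 8, had 0.45 at time 1 and -0.53 at time 2. Hormad1, of the germline list and on chromosome 3, had -0.45 at time 1 and 0.54 at time 2. Within X-high Y-negative, X-low Y-negative and X-low Y-positive barcodes of time 1 the Hormad1 ratio was 0.21, 0.50 and 0.13.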

How the results depend on the processing

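Each alternative changed 1 choice. Of the values that answer a comparison 146 stayed within their spread or 1.5 times the count, and 39 moved. Of the other values 2077 stayed, 458 moved and 7 reversed. Shares and counts have no sign, so a change of direction could not be marked for them. The balance of genes elsewhere, 205 higher and 133 lower at both times, turned to 92 and 180 with scaling to all UMIs. It was 61 and 299 with TMM, and 313 and 331 without other gains. In the remaining alternatives more genes were higher than lower. The alternatives restricted to X-low Y-negative or X-low Y-positive barcodes were chosen after seeing the data. A gain bound of 1.4 gave gain shares of 1.85 and 2.40% at time 1 and time 2, held-out ratios of 1.52 and 1.58, and a time 2 chromosome 11 median of 0.57. A bound of 1.2 gave shares of 2.81 and 3.42%, held-out ratios of 1.41 and 1.29, X-high shares of gain barcodes of 19.5 and 4.10%, a chromosome 14 share at time 2 of 33.5%, and chromosome 11 medians of 0.51 and 0.47. The time 1 share was 2.68% with at least 30000 UMIs and 1.89% with at least 10000. Without barcodes with 5 endoderm UMIs the time 2 share was 2.96% and the held-out ratio 1.57, and with the reference of the same library that ratio was 1.48.

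Per 1000000 of all UMIs the chromosome 11 medians were 0.51 and 0.49 and 92 genes elsewhere were higher at both times. TMM gave 0.45 and 0.43, with 61 higher and 299 lower. Only barcodes without other gains gave a time 2 median of 0.57, with 313 higher and 331 lower. A pseudocount of 5 gave medians of 0.52 and 0.52. A minimum level of 50 left 305 chromosome 11 genes called and 82 and 65 elsewhere, and one of 5 gave 528 and 267 elsewhere. In X-low Y-positive barcodes the medians were 0.53 and 0.51, with 230 lower. With weighting also on X and Y classes, the counts elsewhere were 240 higher and 89 lower. The gap between chromosome 11 and elsewhere ranged from 0.49 to 0.56 at time 1 and from 0.44 to 0.53 at time 2.

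The 7 values marked as reversed were all at time 2. Values smaller than 1.2-fold in the main analysis could change sign without being marked. At time 1 Cldn7 kept its sign in 17 of 21 alternatives, the glycolysis median in 15 and the S phase median in 16. At time 2 the p53 target median kept its sign in 16 of 21. The MAPK list median became 0.29 per 1000000 of all UMIs, 0.24 with TMM and 0.66 without other gains. Without other gains the germline list became -0.091, Cldn7 0.36 and Krt17 -1.52, and Krt17 was -1.06 in X-low Y-positive barcodes. The level minimum sets how many genes are tested, and for the other changes the cause was not tested. No paired analysis was possible because each time point has 1 library. Depth limits calls of single barcodes near the bounds, shares of Y-positive barcodes and genes below a level of 20.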

Other observations

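Germline genes appeared among the largest differences, and a list of them was written after that was seen. Of 23 listed genes outside chromosome 11, 7 reached a level of 20. Cyct, Usp26, Stra8 and Tuba3a were at least 1.2-fold higher at both times and Rpl10l lower, beside 3.71% and 2.41% of tested genes elsewhere. Usp26, with no-gain levels of 26.8 and 12.8, and Tuba3a, with 21.9 and 12.5, reached the level of 20 through their gain-group values. Over all 23 listed genes 11 were higher in gain barcodes at both times (47.8%), against 43.4% of tested genes elsewhere. Stra8, which starts meiosis, had levels of 66.6 against 28.9 at time 1 and 39.5 against 26.8 at time 2. Dazl, a germ cell RNA-binding protein below the level of 20, had log2 ratios of 1.24 and 0.76. Tex19.1 was the listed gene on chromosome 11.

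Usp26 varied between subsets of gain barcodes. In time 2 barcodes without other gains it was 180.04 in gain and 59.4 in no-gain barcodes, and in those with gains of 1, 8 and 14 it was 3.74 and 1.48. In X-low Y-positive barcodes of time 2 it was 138 against 3.65. P53 target genes had a median log2 ratio of 0.66 in the 26 gain barcodes of time 2 with gains of 1 and 14, against 0.02 over all gain barcodes of time 2. This was the highest median of the subsets examined, and the subset was the smallest. In it 8 of 12 targets were at least 1.2-fold higher, beside 1271 of all 5529 tested genes elsewhere. In the other combinations of gains at time 2 the median lay between -0.07 and 0.18.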
